A study of Mus musculus with 96 samples.

Results

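The regions described here were bound strongly by GATA6 soon after its induction in mouse embryonic stem (ES) cells and had little or none of it in extra-embryonic endoderm (XEN) cells. They are 1623 of the 42403 GATA6 binding regions of the series, or 3.83%. Each had a GATA6 ChIP-seq signal of at least 5 reads per 1000000 (RPM) at 8 h of doxycycline (Dox) and of at most 0.8 RPM in XEN cells. The 8 h threshold was met by 6386 regions and the XEN threshold by 15044, so that 25.4% of the regions strong at 8 h were chosen. The regions were thus chosen by GATA6 values at 8 h and in XEN cells, and those values are given as a description only.

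The induced cells were KH2 ES cells of strain C57BL/6 x 129/Sv carrying a Dox-inducible Gata6 cassette, grown with LIF on fibroblast feeders and collected before Dox (d0) and after 8 h, 16 h, 1 day (d1), 2 days (d2) and 4 days (d4) of Dox. XEN cells, line X10 of strain CD1, were cultured likewise but without LIF and received no treatment. For a further comparison, the Gata6-inducible cells were nucleofected with Oct4 or non-targeting control siRNA, plated in Dox and profiled for GATA6 and SOX17 on d2. ChIP-seq was done for OCT4, SOX2, ESRRB, GATA6 and SOX17, with input chromatin sequenced without antibody, and ESRRB was not profiled in XEN cells in the values used here. The study selected a pair of independent clones of the inducible cells, of which G6.3 was used for the siRNA, and the labels used here do not say which clone gave the other libraries. XEN cells differ from them in strain as well as in cell type, and a difference of cell type cannot be told apart from one of strain.

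GATA6 is a zinc finger transcription factor that recognizes GATA sequences and drives the primitive endoderm (PrE), the lineage that lines the blastocyst cavity and from which XEN cells derive. OCT4 and SOX2 bind side by side to a composite OCT:SOX motif and, with the orphan nuclear receptor ESRRB, maintain the pluripotent state as pluripotency transcription factors (PTFs). SOX17 is a SOX factor of the endoderm that is expressed downstream of GATA6.

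Each deposited value is pooled over the libraries of a condition. In most conditions it resolved as a mean of whole reads of 2 libraries, at depths of 5415562 to 69435058 reads, which gives the spread quoted below. The values before Dox of OCT4, SOX2, ESRRB, SOX17 and input could not be resolved, and those of GATA6 before Dox, ESRRB at 8 h, SOX17 at 16 h and OCT4 in XEN cells came out as a single library (of 2 labelled ones for ESRRB and SOX17), so these values have no spread. The third labelled library of GATA6 at d4, SOX2 at d4 and XEN input shares a replicate number with another and did not appear as a separate library. Per the study's methods most conditions had 2 independent chromatin preparations, and whether these came from separate cultures is not stated, so p-values measure the spread between preparations, which may be technical.

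The 3 regions with the highest 8 h signal show how different the underlying sequences were. They are given first as 201 bases around the GATA6 summit, on the plus strand of mm10, with the best GATA6 motif and the best OCT:SOX motif in capitals where they fall inside the window. The first, in an intron of Abca4, holds a repeated unit with 8 matches to ACAAT or its complement ATTGT, the core letters bound by SOX factors, of which the OCT:SOX motif takes 1 copy, while its GATA6 motif lies outside the window. Over all regions, 46.6% had any such match in a window of this length, as did 42.8% of the chosen regions. The second, in an intron of Sh3bgrl2, shows only its GATA6 motif, and the third, in an intron of Plagl1, shows first the OCT:SOX motif and then the GATA6 motif.
chr3:122145478-122145678: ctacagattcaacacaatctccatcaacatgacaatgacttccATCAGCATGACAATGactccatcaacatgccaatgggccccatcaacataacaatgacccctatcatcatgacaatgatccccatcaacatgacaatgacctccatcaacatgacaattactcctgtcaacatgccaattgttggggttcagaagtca
chr9:83628866-83629066: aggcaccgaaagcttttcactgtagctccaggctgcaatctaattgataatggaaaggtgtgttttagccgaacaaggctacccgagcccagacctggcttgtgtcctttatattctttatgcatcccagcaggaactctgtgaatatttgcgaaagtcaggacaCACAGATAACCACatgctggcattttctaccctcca
chr10:13102564-13102764: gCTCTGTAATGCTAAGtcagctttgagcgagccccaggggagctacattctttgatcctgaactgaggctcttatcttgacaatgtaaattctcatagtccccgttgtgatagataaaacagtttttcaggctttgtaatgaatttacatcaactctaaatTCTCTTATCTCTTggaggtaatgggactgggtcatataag

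The next set is shown because the strength of the GATA6 motif differed with chromatin. These are the 5 regions with the best GATA6 motif among those closed before Dox, each as 43 bases in the orientation of the motif, which is in capitals. All 5 motifs hold AGATAAGA. They lie between 15.0 and 221 kb from the nearest protein-coding start.
chrX:77426117-77426900: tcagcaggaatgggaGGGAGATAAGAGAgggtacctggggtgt
chr15:37381860-37382719: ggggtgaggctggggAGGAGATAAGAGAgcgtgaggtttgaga
chr2:60435337-60436394: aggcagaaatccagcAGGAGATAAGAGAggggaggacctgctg
chr4:57702298-57702955: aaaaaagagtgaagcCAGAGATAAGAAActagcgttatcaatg
chr9:101472161-101473644: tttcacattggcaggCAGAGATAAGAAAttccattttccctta

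For contrast, the best GATA6 motifs of the regions with the highest OCT4 signal before Dox depart from that spelling. Of the 5 such regions, the 3 below have a motif and a sequence given here, and another, near Stoml1, has no GATA6 motif at all. None of the 3 holds GATAA, and their motif scores were 7.81, 8.12 and 8.67, against 15 to 15.2 for the closed regions above. Those closed regions were picked for their motif score, so the size of this gap comes from the choice. Without that choice, the median score was 12.4 in closed and 8.72 in accessible regions of this group. All 3 have a strong OCT:SOX motif, with scores of 18.1, 13.1 and 15.7.
chr3:122145084-122146260: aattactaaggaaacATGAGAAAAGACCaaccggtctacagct
chr12:80010054-80010988: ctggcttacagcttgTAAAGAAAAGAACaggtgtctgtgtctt
chr17:53561412-53562096: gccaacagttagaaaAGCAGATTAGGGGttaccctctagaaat

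The last set comes from beside genes of the pluripotent state and of the PrE. The regions lie 4.04 kb from the start of Sox2, 1.98 kb from Pou5f1, which encodes OCT4, 3.73 kb from Esrrb, 0.555 kb from Nr0b1, a nuclear receptor of ES cells, and 1.14 kb from Cer1, a secreted antagonist made by endoderm. The GATA6 motifs range from a score of 6.51 at Nr0b1 to 14.9 at Esrrb.
chr3:34645871-34646868: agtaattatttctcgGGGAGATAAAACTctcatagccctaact
chr17:35503642-35504431: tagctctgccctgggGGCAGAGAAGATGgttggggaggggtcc
chr12:86364380-86365319: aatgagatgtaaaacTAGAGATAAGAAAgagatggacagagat
chrX:86191555-86193083: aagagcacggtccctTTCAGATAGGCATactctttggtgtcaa
chr4:82885600-82886966: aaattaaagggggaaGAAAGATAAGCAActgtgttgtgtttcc

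The median GATA6 signal, which the choice of regions makes high at 8 h, was lower at each later time. At 90.6% of the regions the 16 h value was below that of 8 h, against 44.7% of all 42403. A high 8 h value was required by the choice, so this difference is given as a description only. The median GATA6 signal was 0.653 RPM before Dox, 6.99 RPM at 8 h, 4.32 RPM at 16 h, 2.51 RPM at d1, 1.81 RPM at d2, 0.899 RPM at d4 and 0.501 RPM in XEN cells. The medians in the 2 libraries were 7.49 and 6.55 RPM at 8 h, 4.47 and 3.98 RPM at 16 h, 2.94 and 2.07 RPM at d1, 1.62 and 1.96 RPM at d2, and 0.665 and 1.10 RPM at d4, so that the library medians of successive times did not overlap. Input had a median of 0.731 RPM at 8 h, 0.565 RPM at d4 and 0.508 RPM in XEN cells. The 1903 regions that were strong both at 8 h and in XEN cells (at least 5 RPM in each) had 10.0 RPM at 8 h and still 9.55 RPM at d4.

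**Figure D1:**
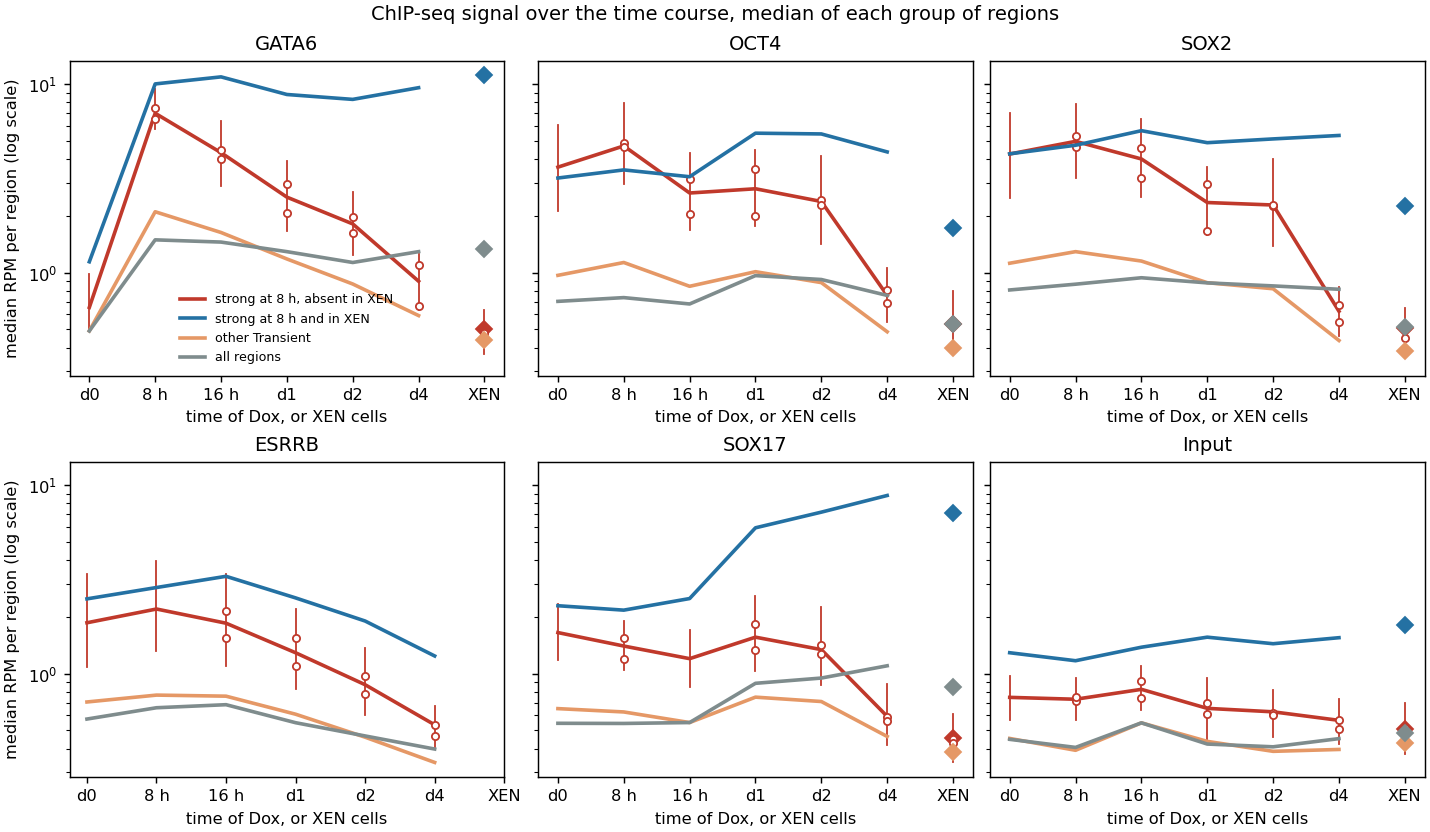
Median RPM per region (log scale) of each antibody and of input at each time of Dox and in XEN cells (diamonds), for the regions strong at 8 h and absent in XEN (red), those strong in both (blue), the other Transient regions (orange) and all regions (gray). Red bars span the middle 50% of regions and open circles are the medians of the 2 resolved libraries; red GATA6, OCT4, SOX2 and SOX17 medians all end below 1 RPM at d4.

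The libraries of 16 h and d4 were not used to choose the regions, and GATA6 was tested between them. This test was added after the data were seen. By edgeR's quasi-likelihood test over all regions (2 libraries against 2, Benjamini-Hochberg adjusted p under 0.05), GATA6 fell from 16 h to d4 at 1481 of the 1623 regions, or 91.3%, against 27.0% of all regions tested. None rose at d4, against 22.1% of all regions, and 0 were higher even at an unadjusted p under 0.05. By d2, 809 regions (49.8%) had fallen, against 13.9% of all regions. On the pooled values, 1505 regions (92.7%) were at least 2-fold lower at d4 than at 16 h, against 29.8% of all regions, with a median log2 change of -2.03 on the log2(RPM + 0.193) scale. A region picked for a high early and a low XEN value tends toward such a fall by the choice itself, in direction and in size. These counts are therefore a description of the chosen regions. With thresholds of 7 and 0.6 RPM the median log2 change was -2.29, and with 4 and 1 RPM it was -1.86. Among the other 14910 regions of the authors' Transient class, whose GATA6 binding is also lost, 50.9% fell from 16 h to d4.

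At d4 the loss was not complete everywhere. The signal was still at least 2 times that of input at 550 regions (33.9%), against 67.9% of all regions and 31.8% of the other Transient regions. At or under the 0.8 RPM used as the XEN threshold were 663 of the 1623, against 14132 of all 42403. In XEN cells, where the choice caps GATA6, the ratio of GATA6 to input had a median of 0.91. There 929 regions had GATA6 at or under input, against 7265 of all 42403, which describes the choice. The corresponding ratio was 10.4 at 8 h and 1.59 at d4, and 6.79 in XEN cells at the regions strong in both. No input read was found in XEN cells at 7 of the 1623 regions (0.431%), against 1.63% of all regions, and the median number of XEN input reads was 9 in both.

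The 8 regions with the highest 8 h signal followed separate courses. The region in Abca4 had 38.4 and 29.4 RPM in the 2 libraries at 8 h, 36.0 and 43.5 RPM at 16 h, 3.44 and 8.74 RPM at d4 and 0.587 and 0.960 RPM in XEN cells. Its XEN input was low, at 0.164 RPM against 1.05 RPM at d4, so that its GATA6 was above input in XEN cells. That input value rests on a few reads, as the lowest XEN input of any region was 0.0995 RPM. The region in Plagl1, an imprinted zinc finger gene, had 29.4 and 22.8 RPM at 8 h but already 10.2 and 6.80 RPM at 16 h, and 0.721 and 0.934 RPM at d4, about the level of its input (0.848 RPM). The region in Sh3bgrl2 had 28.7 and 27.3 RPM at 8 h, 15.5 and 30.2 RPM at 16 h and 2.33 and 4.84 RPM at d4. In all 8, both d4 libraries lay below both libraries of 8 h and of 16 h. All 8 belonged to the moderately accessible class and had a PTF peak before Dox.

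**Figure D2:**
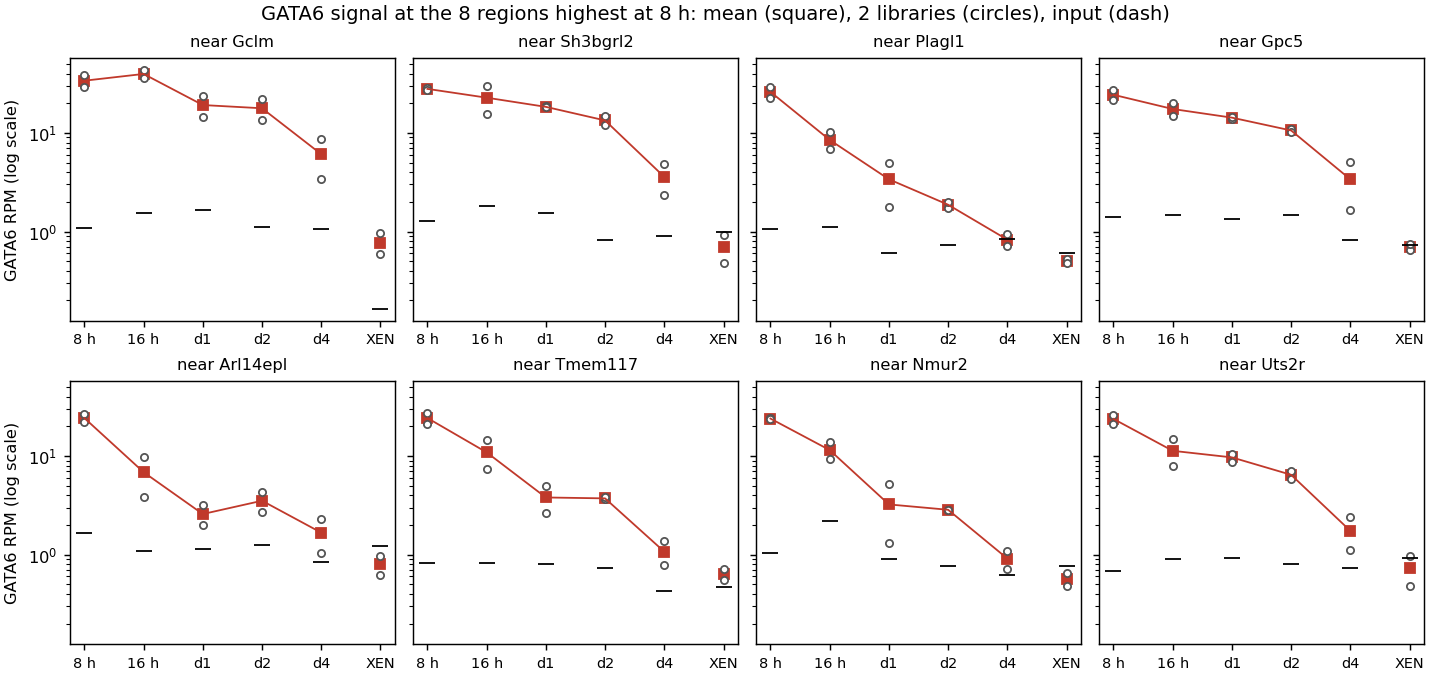
GATA6 RPM (log scale) at the 8 regions with the highest 8 h signal, named by the nearest gene, with the mean as a square, the 2 libraries as circles and input as a dash. In XEN cells 6 of the 8 squares lie below the input dash, and those of the regions in Tmem117 and in Abca4 (nearest gene Gclm) lie above it.

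The regions with the most GATA6 at d4 were that in Abca4 (6.09 RPM), one 0.268 kb from the start of Bzw1 (5.85 RPM), one 94.9 kb from Sox2 (4.48 RPM), one in an intron near Aldh4a1 (3.66 RPM) and that in Sh3bgrl2 (3.58 RPM). At the Bzw1 promoter GATA6 was 8.48 and 9.14 RPM at 16 h and 5.16 and 6.54 RPM at d4, and then 0.391 and 1.17 RPM in XEN cells, so most of its difference lay between d4 and XEN cells. At the other end, 5 regions had 0.140 to 0.196 RPM at d4. The one in Cobl went from 9.15 and 8.20 RPM at 8 h to 0.222 and 0.170 RPM at d4, and the one near Cited4 from 4.80 and 5.41 RPM to 0.222 and 0.170 RPM. Values this low rest on a few reads.

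The edges of the choice were close together. The 3 regions just inside the 8 h threshold had 5.01 RPM each and the 3 just outside it 4.99 to 5 RPM, and the 3 just inside the XEN threshold had 0.799 RPM each and the 3 just outside it 0.801 RPM. Of the chosen regions, 1375 (84.7%, Wilson 95% interval 82.9 to 86.4%) were in the authors' Transient class, 248 (15.3%) in their Early&Constant class and 0 in their Late class (upper bound of the Wilson interval 0.236%). The 248 Early&Constant regions had more GATA6 at 16 h (5.89 against 4.06 RPM) and at d4 (1.34 against 0.842 RPM) than the Transient ones, and a similar XEN median (0.566 against 0.497 RPM). Classes were made from the same GATA6 values and are not independent of the choice.

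Before Dox, most of these regions had a PTF peak. The authors' peak calls placed 1256 (77.4%, 75.3 to 79.4%) among regions with a PTF peak before Dox, 67 (4.13%) among those that gained one ectopically and 300 (18.5%) among those without. Of all regions 20.8% had a PTF peak before Dox, of the other Transient regions 28.6% and of the regions strong in both 61.0%. The median signal before Dox was 3.62 RPM for OCT4, 4.25 RPM for SOX2 and 1.86 RPM for ESRRB, against 0.703, 0.808 and 0.574 RPM over all regions and 0.748 RPM for input at the chosen regions. The regions strong in both had 3.17, 4.26 and 2.49 RPM before Dox, with 1.29 RPM of input. They were wider, at a median of 1325 bases against 881 bases for the chosen regions. All regions had 0.448 RPM of input and a median width of 525 bases. These signals are not scaled to width or to input.

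OCT4 and SOX2 were somewhat higher at 8 h than before Dox. OCT4 had a median of 4.69 RPM at 8 h (4.84 and 4.61 RPM in the 2 libraries). Its median log2 change from d0 was 0.376, against 0.0778 over all regions. Below their d0 value were 6.90% of the regions, against 39.6% of all regions. Only 6 regions (0.370%) passed 2-fold, against 0.0283% of all regions. SOX2 had 4.96 RPM at 8 h (4.64 and 5.31 RPM), with a median log2 change of 0.224. The values before Dox have no spread, so whether the change exceeds that between libraries was not tested.

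OCT4 and SOX2 then fell at most of the regions. OCT4 was at a median of 2.64 RPM at 16 h, 2.78 RPM at d1, 2.38 RPM at d2 and 0.756 RPM at d4, with 0.811 and 0.686 RPM in the d4 libraries. By the edgeR test OCT4 fell from 8 h to d2 at 1084 regions (66.8%), against 15.4% of all regions, and from 8 h to d4 at 1560 (96.1%), against 27.5%. On pooled values 93.4% were 2-fold lower at d4, against 23.7%. SOX2 fell at 1178 regions (72.6%) by d2, against 17.2%, and at 1604 (98.8%) by d4, against 31.8%. On pooled values 97.0% were 2-fold lower at d4, against 27.6%. Among the other Transient regions OCT4 fell at 30.2% by d2 and 52.8% by d4, and SOX2 at 31.1% and 61.0%. The d4 median of SOX2 was 0.623 RPM, with 0.544 and 0.670 RPM in the 2 libraries. At d4 neither factor was higher at any region by this test, against 29.3% of all regions for OCT4 and 31.3% for SOX2. At an unadjusted p under 0.05, OCT4 was higher at 1 and SOX2 at 0, against 13219 and 13866 of all regions. By the fit with TMM scaling the counts at that level were 0 and 1, against 12533 and 14055.

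ESRRB moved the same way with less certainty. Its median was 2.20 RPM at 8 h, 1.85 RPM at 16 h (2.15 and 1.54 RPM in the 2 libraries) and 0.535 RPM at d4 (0.468 and 0.536 RPM). It fell from 16 h to d4 at 1032 of 1620 regions tested (63.7%), against 26.5% of all regions and 36.1% of the other Transient regions. On pooled values 75.1% were 2-fold lower, against 31.6% of all regions. ESRRB was lower over the whole set of regions as well, and with TMM scaling, which centers on the bulk of regions, 34.4% fell, against 11.9% of all regions. Of the regions strong in both, ESRRB fell at 58.7% by the edgeR test, while from 8 h to d4 OCT4 rose at 37.4% and fell at 17.5%, and SOX2 rose at 31.7% and fell at 24.0%. In XEN cells OCT4 and SOX2 were at medians of 0.533 and 0.505 RPM at the chosen regions, next to 0.508 RPM of input.

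Input itself was slightly lower at d4 than at 8 h at these regions. Its median log2 change was -0.310, against 0.155 over all regions, and edgeR called 9 of 1615 regions tested (0.557%) lower, against 22 of all 36502 (0.0603%). Its part in the falls above was not tested. After subtracting input of the same time, the median log2 changes from 8 h to d4 were -3.48 for OCT4 and -3.86 for SOX2.

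The changes of GATA6 and OCT4 were weakly related across these regions, much as across the other Transient regions. Across the 1623 regions, the change of GATA6 from 16 h to d2 and that of OCT4 from 8 h to d2 had a Pearson r of 0.231 and a Spearman rho of 0.214, against 0.293 and 0.236 across the other Transient regions and 0.560 and 0.543 across all regions. These are descriptions across regions that share libraries and chromatin, and regions are not replicates.

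SOX17 was lower at d4 than at 8 h at many of these regions. The chosen regions had a median of 1.65 RPM before Dox, 1.40 RPM at 8 h, 1.56 RPM at d1, 1.34 RPM at d2, 0.593 RPM at d4 and 0.454 RPM in XEN cells, and the regions strong in both went from 2.17 RPM at 8 h to 8.80 RPM at d4. The signal before Dox was above input (0.748 RPM). Whether the antibody signal before Dox and at 8 h is SOX17 itself was not tested, and the changes from 8 h below start from that signal. From 8 h to d1, SOX17 was compared by an edgeR test that was likewise added after the data were seen. It rose at 276 regions (17.0%), against 30.1% of all regions and 14.2% of the other Transient regions. It fell at 48 (2.96%), against 0.432% and 0.817%. With TMM scaling 40 (2.46%) rose and 323 (19.9%) fell, against 9.35% and 3.44% of all regions, so the direction at d1 depends on the scaling. From 8 h to d4, by the same added test, SOX17 fell at 803 regions (49.5%), against 7.36% of all regions and 15.1% of the other Transient regions. On pooled values 49% were 2-fold lower, against 7.32% of all regions. With TMM scaling 88.4% fell, against 22.0% of all regions and 47.5% of the other Transient regions. The authors called a SOX17 peak at 450 regions (27.7%), against 44.5% of all regions and 94.3% of those strong in both. Of the other Transient regions, 15.7% had one.

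The 4 regions with the most SOX17 at d4 lie near Cbln4 (6.08 RPM), in an intron near Adnp (5.66 RPM), in an exon of Pif1 (5.06 RPM) and in an intron of Sptlc2 near Ism2 (5 RPM). All 4 had a PTF peak before Dox and were classed as active enhancers. GATA6 at d4 was 3.20, 3.29, 3.22 and 3.58 RPM there, above the median of 0.899 RPM. At the Adnp region OCT4 was 15.2 RPM before Dox and still 8.82 RPM at d4. In XEN cells SOX17 was 0.412 to 0.767 RPM at these 4.

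GATA6 was lower with Oct4 siRNA at many of these regions on d2. OCT4 itself was not profiled with siRNA in the values used here, so the knockdown was not checked from these values. The study's methods state that it was checked by qPCR. The median GATA6 signal was 2.07 RPM with control siRNA (1.83 and 2.33 RPM in the 2 libraries) and 1.21 RPM with Oct4 siRNA (1.12 and 1.29 RPM), and the libraries of the 2 siRNAs did not overlap. The median log2 change was -0.687, against -0.00392 over all regions and -0.276 over the other Transient regions. By the edgeR test GATA6 fell at 401 regions (24.7%), against 4.38% of all regions and 6.08% of the other Transient regions. It rose at 2 (0.123%), against 6.12% and 0.23%. With TMM scaling it fell at 709 (43.7%), against 11.7% and 13.7%. On pooled values 442 regions (27.2%) were 2-fold lower, against 5.28% and 8.69%. At the regions strong in both the medians were 13.2 and 13.4 RPM, and 0.420% fell and 1.63% rose.

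**Figure D3:**
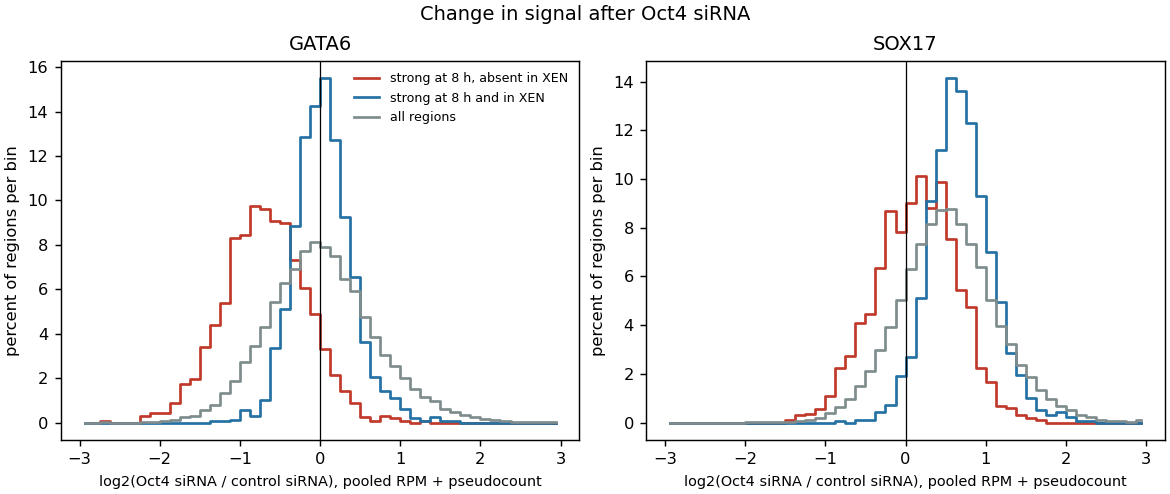
Percent of regions in each bin of the log2 ratio of Oct4 to control siRNA (pooled RPM plus pseudocount) for GATA6 (left) and SOX17 (right), in the regions strong at 8 h and absent in XEN (red), those strong in both (blue) and all regions (gray). For GATA6 the red curve is centered at -0.687 and the gray one near 0, and for SOX17 the medians are 0.157 in red, 0.667 in blue and 0.520 in gray.

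The largest falls were near Chordc1, in an intron of Rb1 near Lpar6, and near Sntb1. At the first, GATA6 was 2.28 and 3.02 RPM with control siRNA and 0.363 and 0.0995 RPM with Oct4 siRNA (log2 change -2.75, edgeR adjusted p = 3.3e-07). Near Sntb1 it went from 9.61 and 12.1 RPM to 2.72 and 1.69 RPM (adjusted p = 6.2e-07), and in Rb1, which encodes a regulator of the cell cycle, from 1.54 and 2.68 RPM to 0.290 and 0.298 RPM (adjusted p = 2.2e-05). Of the regions highest at 8 h, that in Abca4 went from 20.5 and 25.8 RPM to 11.1 and 10.5 RPM (adjusted p = 0.0153), and the one near Nmur2 from 2.73 and 3.72 RPM to 0.689 and 0.696 RPM (adjusted p = 9.8e-05). The region in Plagl1 had 1.57 and 2.38 RPM against 1.16 and 1.79 RPM, which did not pass the test (adjusted p = 0.503). Both regions that rose are among the 3 with the largest rise, of which one lies in an intron of Epb41l4a, from 1.09 and 1.68 RPM to 2.97 and 4.18 RPM (adjusted p = 0.0152), and one near Pcdh20, from 1.12 and 1.04 RPM to 2.39 and 2.69 RPM (adjusted p = 0.0453). The third, 3.02 kb from the start of Tdgf1, a co-receptor of NODAL, had 1.57 and 1.56 RPM against 2.43 and 3.98 RPM (adjusted p = 0.099).

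The share of regions where GATA6 fell with Oct4 siRNA differed between classes, though the difference was not tested. It was 26.7% of the 1256 with a PTF peak before Dox, 13.0% of the 300 without and 40.3% of the 67 with an ectopic one. Their control siRNA medians were 2.02, 1.95 and 4.42 RPM, and their median log2 changes -0.721, -0.570 and -0.841. It was 40.3% of the Early&Constant and 21.9% of the Transient regions, at control medians of 4.76 and 1.83 RPM. A fall is easier to call where more reads are present, and the part of that in these shares was not tested.

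SOX17 did not show a comparable change. Its median was 0.942 RPM with control siRNA (0.921 and 0.980 RPM) and 1.11 RPM with Oct4 siRNA (0.759 and 1.46 RPM), so the Oct4 siRNA libraries lay on either side of the controls. By edgeR 0 regions rose and 0 fell at an adjusted p under 0.05, against 2.52% and 0.0119% of all regions. At an unadjusted p under 0.05, 32 of the 1623 were higher and 18 lower, against 7048 and 160 of all 42046 regions tested. On pooled values 3.57% were 2-fold higher and 1.36% lower, against 20.8% and 0.441% of all regions. The median change of all regions was 0.520, that of the chosen ones 0.157, and with TMM scaling SOX17 fell at 283 (17.4%), against 6.50% of all regions, so the direction for SOX17 depends on the scaling.

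The chromatin of the regions before Dox was more often open than that of GATA6 regions in general. By the authors' classes, 497 were closed (30.6%, 28.4 to 32.9%), 894 moderately accessible (55.1%, 52.7 to 57.5%) and 232 accessible (14.3%, 12.7 to 16.1%). Over all regions these shares were 61.3, 31.2 and 7.43%, and over the regions strong in both 41.6, 48.4 and 10.0%. Over the other Transient regions they were 42.5, 45.3 and 12.2%. Histone classes were led by primed enhancers (512, 31.5%) and active enhancers (418, 25.8%), against 16.9 and 11.2% of all regions. The same shares were 22.2 and 24.3% of the regions strong in both, and 19.3 and 16.7% of the other Transient regions. Next among the chosen regions came 213 poised enhancers (13.1%) and 206 regions of the naive class (12.7%). Both shares were below those of all regions, at 14.6 and 18%. Facultative heterochromatin made up 6.59%, against 22.3% of all regions. Intervals cover counting only, and classes carry no error of their own.

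**Figure D4:**
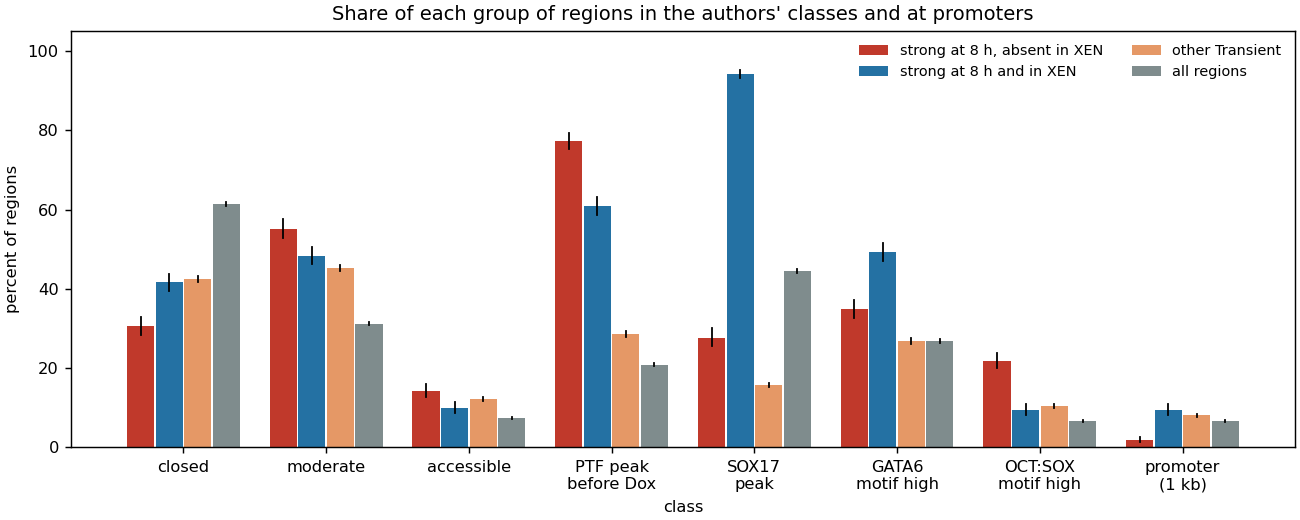
Percent of regions in each class (bars, with Wilson 95% intervals as black lines) for the regions strong at 8 h and absent in XEN (red), those strong in both (blue), the other Transient regions (orange) and all regions (gray). The red bar is the highest of the 4 for a PTF peak before Dox (77.4%) and for a high OCT:SOX motif (21.9%), and the lowest for closed chromatin (30.6%) and promoters (1.85%).

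They were also distal. Region centers fell in intergenic DNA at 916 (56.4%), in introns at 655 (40.4%), in exons at 22 (1.36%) and within 1 kb of a protein-coding start at 30 (1.85%, 1.30 to 2.63%), against 6.59% at promoters over all regions and 9.51% over those strong in both. The median distance to the nearest protein-coding start was 48125 bases, against 31153 bases over all regions. The regions were spread out, and 8.19% had another chosen region within 10 kb, against 14.3% of those strong in both, a group of similar size. Median width was 881 bases, against 525 bases over all regions and 1325 bases over those strong in both. GC content was 44.6% against 45.2%, and 19.2% of a region's bases were marked as repeats, against 14.6%.

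Strong OCT:SOX motifs were several times as frequent as over all GATA6 regions. A high-scoring OCT:SOX motif was present in 355 (21.9%, 19.9 to 23.9%), against 6.68% of all regions, 9.51% of those strong in both and 10.5% of the other Transient regions. A high or mid motif was present in 50.5%, against 20.3% of all regions. OCT:SOX motifs numbered a median of 3.24 per kb, against 2.29 per kb over all regions. A high-scoring GATA6 motif was present in 567 (34.9%, 32.7 to 37.3%), against 26.8% of all regions and 49.3% of those strong in both, and GATA6 motifs numbered 3.26 per kb against 3.81 and 3.45 per kb. An ESRRB motif of the high class was present in 17.7%, the same share as in the regions strong in both, against 8.67% of all regions.

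Of the best GATA6 matches in the 1548 regions that had one, 64.0% held AGATAA on the motif strand, against 59.6% over all regions and 74.6% over those strong in both, and 13.6% held TGATAA. Among 1514 best OCT:SOX matches, 9.91% held ATGCAAA and 7.33% held ATGCTAA, against 6.38 and 3.30% over all regions. The best OCT:SOX motif lay within 50 bases of the GATA6 summit in 36.6% of the regions that had one, against 35.2% of the other Transient regions, 26.7% of all regions and 11.5% of those strong in both. The best GATA6 motif did so in 40.2%, against 50.0 and 43.5%. The 2 motifs were a median of 195 bases apart, and within 50 bases of each other in 14.7%, against 19.3% of all regions.

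Closed and accessible regions of this group differed in GATA6 motif and in OCT4 before Dox. GATA6 at 8 h, on which the regions were chosen, had medians of 6.97, 6.99 and 7.05 RPM in closed, moderate and accessible regions, and nothing is read from their likeness. The best GATA6 motif scored a median of 12.4, 10.4 and 8.72 in turn, and a high GATA6 motif was present in 54.5, 30 and 12.1%. OCT4 before Dox went the other way, with 2.09, 4.24 and 7.53 RPM, and a high OCT:SOX motif was present in 15.5, 23.5 and 29.3%. Across the 1548 regions with a GATA6 motif, its score and OCT4 before Dox had a Spearman rho of -0.294, against -0.185 across the other Transient regions, -0.0988 across those strong in both and 0.0504 across all regions. The regions were chosen for a high 8 h signal, and the part of that choice in the relation was not tested.

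**Figure D5:**
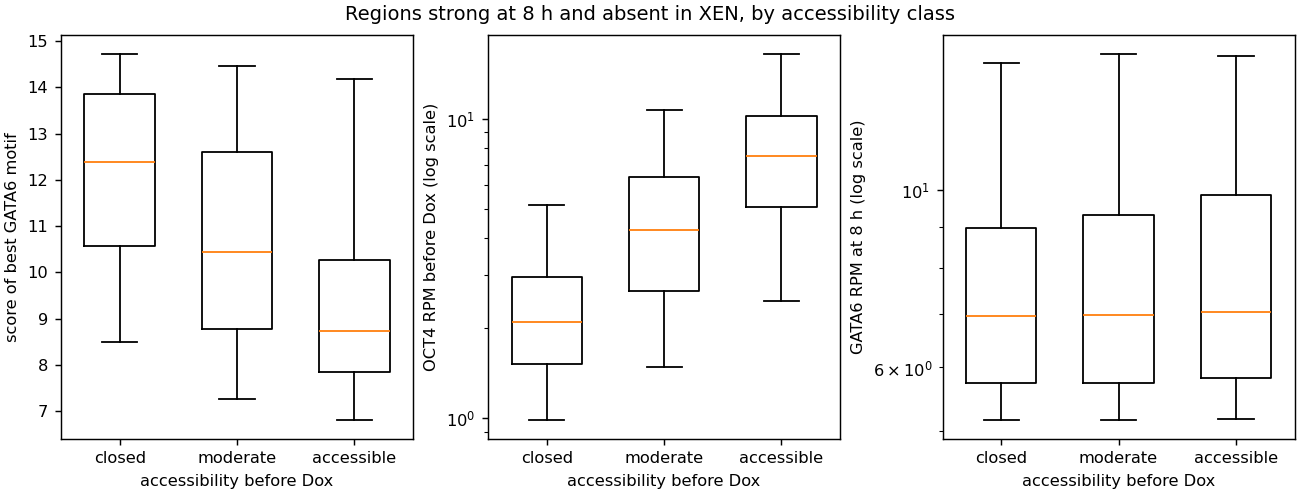
Score of the best GATA6 motif (left), OCT4 RPM before Dox (middle, log scale) and GATA6 RPM at 8 h (right, log scale) by accessibility class before Dox, with the median as a line, the middle 50% of regions as a box and percentiles 5 and 95 as whiskers. Motif score runs down from 12.4 to 8.72 and OCT4 up from 2.09 to 7.53 RPM, and GATA6 at 8 h, on which the regions were chosen, has medians of 6.97 to 7.05 RPM.

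Later changes were present in all 3 classes. From 16 h to d4 GATA6 fell at 95.2% of closed, 91.6% of moderate and 81.5% of accessible regions, with median log2 changes of -2.22, -1.99 and -1.72. The log2 difference of OCT4 between d0 and 8 h had medians of 0.517, 0.328 and 0.255 in the same order. With Oct4 siRNA GATA6 fell at 28.4, 24.4 and 18.1% of them. The 75 regions without any GATA6 motif had 6.00 RPM of OCT4 before Dox and 6.33 RPM of GATA6 at 8 h, and GATA6 fell from 16 h to d4 at 74.7% of these, against 95.6% of those with a high motif. None of these differences between classes was tested.

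Listed genes of the pluripotent state and of the PrE differed in how many lay near the regions. Of 47 listed pluripotency genes, 17 (36.2%) had their start within 100 kb of one, with 26 regions among them, and of 42 listed PrE genes 4 (9.52%) did, with 4 regions. Of all 21951 protein-coding genes 12.9% did. The regions strong in both lay within that distance of 46.8% of the pluripotency and 64.3% of the PrE list, against 19.5% of all genes. The lists were put together with results of these data known.

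The pluripotency genes included Dnmt3b, Esrrb, Etv4, Klf4, Nodal, Nr0b1, Pou5f1, Prdm14, Sox2, Spry4, Tbx3, Tcl1, Tdgf1, Tet1, Tet2 and Trim28. Sox2 had 3 regions. The one 4.04 kb from its start had 13.7 and 12.7 RPM of GATA6 at 8 h, 8.82 and 8.20 RPM at 16 h and 0.721 and 0.849 RPM at d4, and OCT4 went from 10.1 RPM before Dox to 0.677 RPM at d4. The one 94.9 kb away kept 3.10 and 5.86 RPM of GATA6 and 3.11 RPM of OCT4 at d4. The region 0.555 kb from the start of Nr0b1 had 19.3 and 16.4 RPM of GATA6 at 8 h and 4.58 and 20.4 RPM at 16 h, a wide spread between libraries, and 0.499 and 1.02 RPM at d4. OCT4 there was already lower at 8 h, at 5.29 RPM against 14.1 RPM before Dox.

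At Pou5f1 the region 1.98 kb from the start had 9.82 and 9.86 RPM of GATA6 at 8 h, 9.74 and 12.2 RPM at 16 h and 1.5 and 3.06 RPM at d4, with OCT4 at 9.33 RPM before Dox and 4.26 RPM at d4. At Esrrb the region 3.73 kb into the gene was closed and had no PTF peak, and its GATA6 went from 8.61 and 7.51 RPM at 8 h to 0.166 and 0.424 RPM at d4. Tet2, which encodes a DNA demethylase, had 3 closed regions, with 6.42, 7.41 and 10.8 RPM of GATA6 at 8 h and 0.955 to 1.87 RPM at d4. The PrE genes were Apoe, Cer1, Rbp4 and Srgn. The region beside Cer1 was closed and in facultative heterochromatin, yet had a PTF peak before Dox. Its GATA6 was 21.1 and 18.4 RPM at 8 h, 16.5 and 18.7 RPM at 16 h, 1.72 and 3.40 RPM at d4 and 0.847 and 0.685 RPM in XEN cells. With Oct4 siRNA it went from 19.9 and 24.9 RPM to 10.5 and 12.2 RPM (edgeR adjusted p = 0.0314).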

How the data were processed

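ChIP-seq libraries were trimmed by the authors with cutadapt, aligned to mm10 with Bowtie2 and counted on GATA6 regions, and the deposited values are RPM, pooled by condition. Motif scores, from scans of the regions with FIMO, and classes were deposited by the authors too. Of the 105 columns, 14 hold per-sample values of other assays and were not used, nor was the authors' outcome of the siRNA test. Pooled RPM resolved into whole reads of 2 libraries for 100% of values in 36 columns, at depths of 5415562 to 69435058 reads. The lowest read number was 1 in every library, so 1 was subtracted before testing. Regions with at least 10 reads in total were tested with edgeR 4.0.16 (R 4.3.3), quasi-likelihood, 2 against 2 libraries, over all regions. Pooled changes used log2(RPM + pseudocount), with percentile 5 of an antibody's values as the pseudocount. Genes are from GENCODE M21. The members and lists were chosen with earlier results of these data known. Named regions are the extremes of GATA6, OCT4, SOX17, siRNA change, motif score and thresholds, and those near listed genes. The resolution into libraries and the edgeR fit, the latter at the depths of the GATA6 siRNA comparison, were tested on simulated data. For the edgeR fit the simulated dispersion was below the 0.0476 fitted to that comparison. That simulation therefore does not give the error rate of the fit on these data.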

Additional observations from a re-analysis of the deposited data

How the results depend on the processing

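Of 193 values recomputed under another setting, 159 stayed within 1.5 times the main value, 31 moved further and 3 changed sign. Stricter thresholds (7 and 0.6 RPM) left 517 regions and looser ones (4 and 1 RPM) 3053. A pseudocount 10 times larger gave median log2 changes of -1.12 for GATA6 (58.5% of regions 2-fold lower), -1.38 for OCT4, -1.43 for SOX2, -0.681 for ESRRB (31.1%) and -0.381 for SOX17 (3.39%), and 2.71% and 0% of regions 2-fold lower with Oct4 siRNA for GATA6 and SOX17. With one 10 times smaller the last was 2.40%. Subtracting input gave -2.79 for GATA6, -3.48 for OCT4, -3.86 for SOX2 and -2.48 for ESRRB. TMM scaling, added for the time courses after the data were seen, gave -0.90 and 34.4% lower for ESRRB, -2.42 and 88.4% for SOX17, and with Oct4 siRNA 43.7% lower for GATA6 and -0.496 and 17.4% for SOX17. It moved the median of all regions from -0.778 to 0.191 for ESRRB and from 1.39 to 0.192 for SOX17 at d4. Relative to the median of all regions, SOX17 with Oct4 siRNA had -0.363, with 12.2% lower.

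Leaving out 1 library at a time, SOX17 with Oct4 siRNA ranged from -0.30 to 0.466 and from 0.801 to 12% lower, the lowest median and the 12% without the second Oct4 siRNA library, and GATA6 from -0.816 to -0.55 and from 19.2 to 36.8%. The falls by d4 kept their sign, at -2.38 to -1.76 for GATA6, -2.56 to -2.33 for OCT4, -2.82 to -2.59 for SOX2, -1.71 to -1.34 for ESRRB and -1.15 to -0.77 for SOX17. Counting only accessible chromatin gave 14.3% in place of 69.4% accessible or moderate, only high GATA6 motifs 34.9% in place of 68.8%, and high or any OCT:SOX motifs 21.9 and 93.3% in place of 50.5%. GATA6 motifs were 1.28 times those of all regions per region and 0.808 times per kb. Within 50 kb, 2 PrE genes were near a region in place of 4. The causes of these differences were not tested. No paired analysis was possible because the libraries resolved from the pooled values carry no replicate number. Values under about 1 RPM rest on few reads, and the conditions before Dox could not be tested.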
